A study of Mus musculus with 15 samples.

Results

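Integrins are cell-surface receptors made of 1 alpha and 1 beta chain. The leukocyte integrins treated here are 8 genes, named in a list drawn up with earlier results of these data known, among 22350 protein-coding genes of the mm9 annotation on chromosomes 1 to 19 and X. They fall into the alpha chains that pair with the beta2 chain (Itgal, Itgam, Itgax, Itgad), the beta2 chain itself (Itgb2), and the alpha4 chain with its partners beta1 and beta7 (Itga4, Itgb1, Itgb7). In blood cells, the alphaL-beta2 pair (LFA-1) is a receptor for ICAM proteins. The alphaM-beta2 (CD11b, Mac-1) and alphaX-beta2 (CD11c) pairs are receptors of myeloid cells that bind complement fragments and fibrinogen. The alphaD-beta2 pair is found on some tissue macrophages. The alpha4 chain binds VCAM1 and fibronectin when paired with beta1, and the gut addressin MAdCAM1 when paired with beta7.

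The data were chromatin immunoprecipitation sequencing (ChIP-seq) tags for 3 histone marks in C10 cells, a single line derived from the mouse pre-B line HAFTL that carries an estradiol-inducible form of the transcription factor C/EBPα. Addition of β-estradiol (100 nM per the labels, while the methods text gives a micromolar unit), together with IL-3 and CSF-1 (10 nM), moves the factor into the nucleus, and the cells become macrophage-like. The marks were H3K27Ac, found at active promoters and enhancers, H3K4Me1, found at enhancers whether or not they are active, and H3K27Me3, found at genes repressed by Polycomb proteins. Each was measured at 0, 3, 12, 24 and 48 h post-induction (hpi), where 0 hpi stands for uninduced cells (controls received the ethanol solvent). The values describe 1 line with a transgene and not a normal differentiating cell. There was 1 library per mark and time, 15 in all, so no difference between times has a replicate check and none was tested. All intervals given cover counting error only.

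Each value is the number of tags in a window of 3 kb, after libraries of a mark were brought to the same number of tags (15216488 for H3K27Ac, 10913733 for H3K4Me1 and 15338280 for H3K27Me3). All windows have the same length, but the share of positions readable with 36-base tags differs between them. At the starts it was 83.8% for Itgal and 95% to 100% for the other 7 members, and levels were not corrected for it. A window was called enriched at 34 tags or more for H3K27Ac and H3K27Me3 and at 27 tags or more for H3K4Me1. A change was called at 2-fold, with 5 tags added to each value before the log2 ratio of 48 over 0 hpi. In brackets beside a log2 change stands the 95% counting interval of the plain tag ratio, also on the log2 scale, which for low counts need not be centred on the change. Scaling on bins enriched at all 5 times instead would multiply the 48 hpi tags by a factor whose log2 is 0.42 for H3K27Ac and -0.17 for H3K27Me3, with a smaller effect on low counts because of the added tags. It moved the median over all starts from -0.16 to 0.13 for H3K27Ac. For scaling on background bins the log2 factors were 0.53 for H3K4Me1, 0.15 for H3K27Me3 and -0.09 for H3K27Ac at 48 hpi, and for H3K27Ac -0.28 at 3 hpi and 0.54 at 24 hpi, so the order of neighbouring values at 24 and 48 hpi can turn with the scaling. The files did not allow fewer cells with a mark to be told apart from less of the mark per cell. The H3K27Ac libraries of 0 and 3 hpi stood apart from the others in 1 respect. They held 523 and 438 tags in a 90 kb segment of the immunoglobulin heavy chain locus where the other 13 libraries held 23 tags in all. For scale, the mean was 18.3 H3K27Ac tags per mappable 3 kb, and the 13 libraries were nearly empty there. The main H3K27Ac changes are therefore also given between 12 and 48 hpi, without the H3K27Ac libraries of 0 and 3 hpi, over a shorter part of the time course. The H3K4Me1 and H3K27Me3 libraries of 0 and 3 hpi were among the 13. Comparisons between H3K27Ac and the other marks that use those times thus mix libraries that differ in this segment. The cell type labels were checked on H3K27Ac at the starts of marker genes. All 8 pre-B markers were enriched at 0 hpi and all 8 were lower by at least 2-fold at 48 hpi, with summed tags of 10220 and 3332. All 8 were still enriched at 48 hpi. All 8 macrophage markers were higher at 48 hpi, with summed tags of 642 and 4693, and 5 of the 8 were already enriched at 0 hpi. Of the markers of other cell types, 1 of 6 T cell and 1 of 4 erythroid genes were enriched at every time, and 1 of 6 fibroblast or epithelial genes at 48 hpi.

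The promoters that these results turn on are shown first. The 4 alpha chains that pair with beta2 are set side by side because their starts behaved differently, and Itgb7 because its start changed most. Each line gives 250 bases just before the start, read from mm9 on the strand of the gene, and capitals mark matches to the motifs searched. Itgam lies at chr7:135205904-135206153, Itgax at chr7:135272811-135273060, Itgal at chr7:134439524-134439773 and Itgad at chr7:135317210-135317459, all on the plus strand. Itgb7 lies at chr15:102062367-102062616 on the minus strand.
Itgam: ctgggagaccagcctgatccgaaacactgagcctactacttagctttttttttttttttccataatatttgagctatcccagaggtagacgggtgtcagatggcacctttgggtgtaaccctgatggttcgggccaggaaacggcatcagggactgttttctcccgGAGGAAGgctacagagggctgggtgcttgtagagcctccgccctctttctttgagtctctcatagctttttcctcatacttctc
Itgax: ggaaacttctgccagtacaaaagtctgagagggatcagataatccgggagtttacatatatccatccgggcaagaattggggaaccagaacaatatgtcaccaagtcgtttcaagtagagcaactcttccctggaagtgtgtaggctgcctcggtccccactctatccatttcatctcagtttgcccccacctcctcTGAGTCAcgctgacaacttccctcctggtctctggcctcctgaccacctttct
Itgal: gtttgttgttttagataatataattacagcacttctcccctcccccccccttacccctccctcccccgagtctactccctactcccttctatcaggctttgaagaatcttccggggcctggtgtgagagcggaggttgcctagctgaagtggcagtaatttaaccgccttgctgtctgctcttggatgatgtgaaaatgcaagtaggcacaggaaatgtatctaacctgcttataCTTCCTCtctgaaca
Itgad: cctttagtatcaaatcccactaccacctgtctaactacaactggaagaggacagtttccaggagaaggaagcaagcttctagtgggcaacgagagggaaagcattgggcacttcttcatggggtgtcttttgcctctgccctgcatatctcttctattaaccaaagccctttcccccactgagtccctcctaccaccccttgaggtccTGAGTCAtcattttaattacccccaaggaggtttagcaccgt
Itgb7: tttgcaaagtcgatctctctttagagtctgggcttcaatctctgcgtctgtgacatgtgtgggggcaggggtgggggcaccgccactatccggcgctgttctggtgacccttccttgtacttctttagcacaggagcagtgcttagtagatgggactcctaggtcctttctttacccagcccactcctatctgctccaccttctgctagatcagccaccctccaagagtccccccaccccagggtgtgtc
The letters searched, on both strands and from 250 bases before to 50 after each start, were GAGGAAG (PU.1 type), TTGCNNAA (C/EBP type), TGTGGTT (RUNX type), TGANTCA (AP-1 type) and TCCCNNGGG (EBF type). They occurred in 13.4%, 10.3%, 5.07%, 6.79% and 7.16% of 22345 promoters, respectively. The PU.1 type occurred in Itgam 91 bases before and 25 bases after the start, in Itgal 15 bases before it and in Itgb7 2 bases after it. The AP-1 type occurred in Itgax 53 bases and in Itgad 51 bases before the start, as tgagtca in both. None of the 5 was found in the windows of Itgb2, Itga4 or Itgb1. Over the printed 250 bases, the Itgax and Itgad promoters were identical in 48.3% of aligned positions, within the range of 42.0% to 52.6% of the other 27 pairs of members. Itgb1 had the promoter richest in CpG, with 27 CpG sites in 300 bases and an observed over expected ratio of 0.798, while the other 7 lay between 0.162 and 0.322, all below the median of 0.54 over all promoters. Distances are from the main start, which in Itgam and Itgad lies a few bases beyond the printed run. A match to these letters is a description of the sequence and not a binding site.

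Across the 8 starts, H3K27Ac was at least 2-fold higher at 48 than at 0 hpi at 3 members (Itgam, Itgax, Itgb7) and at least 2-fold lower at none. Over all 21874 starts tested, 5.5% were higher and 9.66% were lower by the same measure. H3K4Me1 was higher at the same 3 starts (3.5% of all starts) and lower at that of Itgal (9.83%). H3K27Me3 was higher at none (1.61%) and lower at that of Itgb7 (2.01%). The median log2 change of the 8 members was 0.00 for H3K27Ac, 0.33 for H3K4Me1 and -0.37 for H3K27Me3, beside medians of -0.16, -0.28 and 0.00 over all starts.

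**Figure D1:**
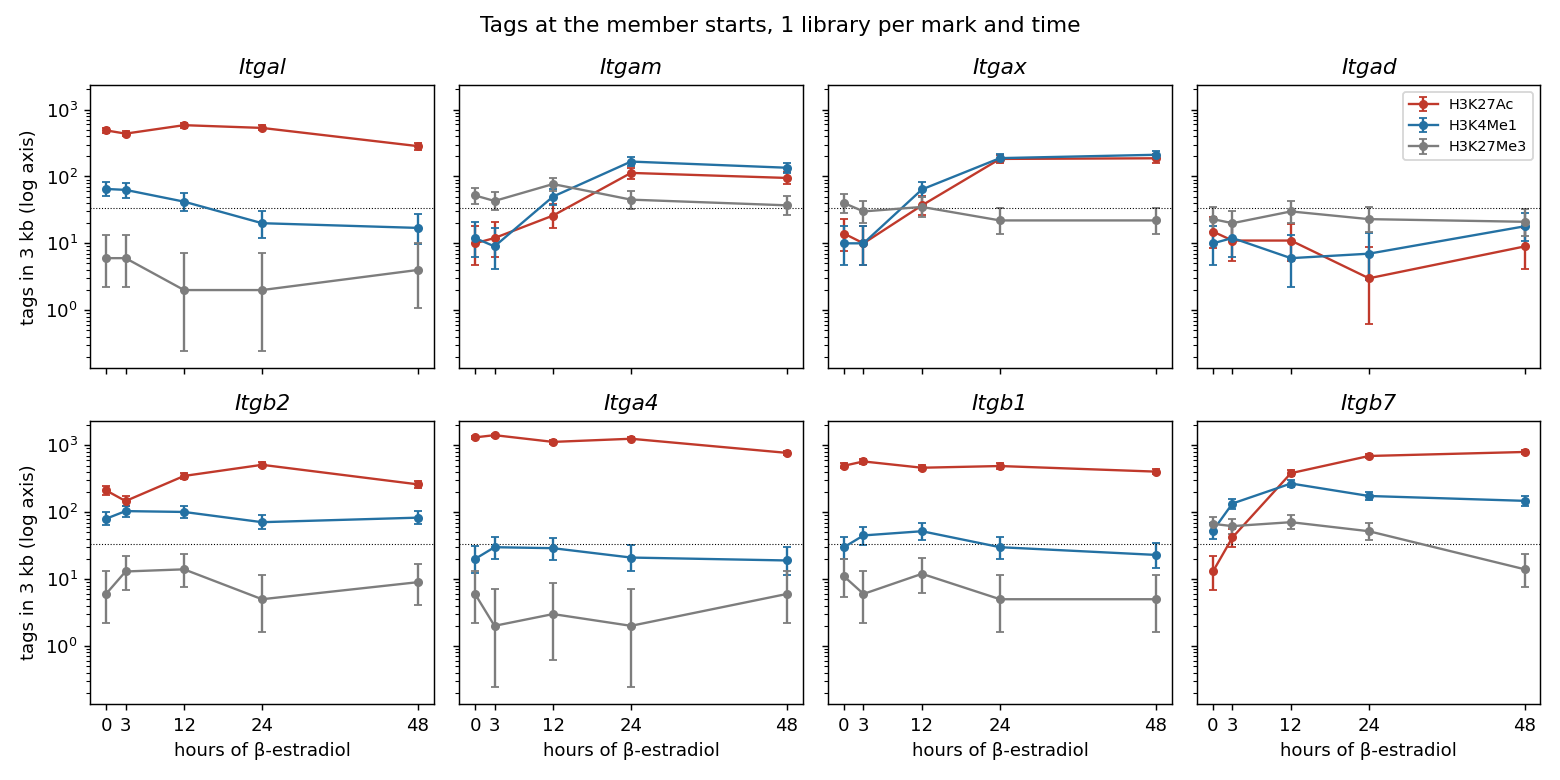
Tags in the 3 kb around each member start (log axis) against hours of β-estradiol, 1 library per mark and time, with exact Poisson 95% intervals; the dotted line marks the 34 tags at which H3K27Ac and H3K27Me3 count as enriched. H3K27Ac rose at Itgam, Itgax and Itgb7, stayed high at Itgal, Itgb2, Itga4 and Itgb1, and lay below the line at Itgad throughout.

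The number of member starts enriched in H3K27Ac went from 4 of 8 at 0 hpi, when 47.3% of all starts were enriched, through 5, 6 and 7 at 3, 12 and 24 hpi to 7 of 8 at 48 hpi, when 48.2% were. For H3K4Me1 it was 4 at 0 hpi (45.7% of all starts), 5, 7 and 5 at the times between, and 4 at 48 hpi (41.5%). The 4 starts at 48 hpi were not those of 0 hpi: Itgal and Itgb1 had left and Itgam and Itgax had joined. For H3K27Me3 it was 3 at 0 hpi (16.6%), namely Itgam, Itgax and Itgb7, and 1 at 48 hpi (18.9%), namely Itgam. All 3 members whose H3K27Ac rose by 2-fold thus started with H3K27Ac below the cut-off, and in these counts with H3K27Me3 above it. For Itgax the latter depended on how the libraries were brought to the same size. Its start held 40 H3K27Me3 tags at 0 hpi, but 31.6 with all tags scaled, which is below the cut-off. Itgam (50.1 tags) and Itgb7 (65.6 tags) stayed above it with all tags scaled.

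The order of the members by H3K27Ac at the start was rearranged over the time course. At 0 hpi Itga4 stood first with 1316 tags, Itgb1 (496 tags) and Itgal (489 tags) had overlapping intervals, before any account of the fewer readable positions at Itgal, and Itgb2 followed with 212 tags. Itgad (15 tags), Itgax (14 tags), Itgb7 (13 tags) and Itgam (10 tags) were all below the genome mean of 18.3 tags per window and had overlapping intervals. At 48 hpi Itgb7 (797 tags, 743 to 854) and Itga4 (772 tags, 718 to 828) shared the top with overlapping intervals. Below them came Itgb1 with 405 tags, Itgal (284 tags) and Itgb2 (261 tags) with overlapping intervals, Itgax with 187, Itgam with 95 and Itgad with 9 tags. Itgb7 thus moved from percentile 47.5 among all starts to percentile 99.2.

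**Figure D2:**
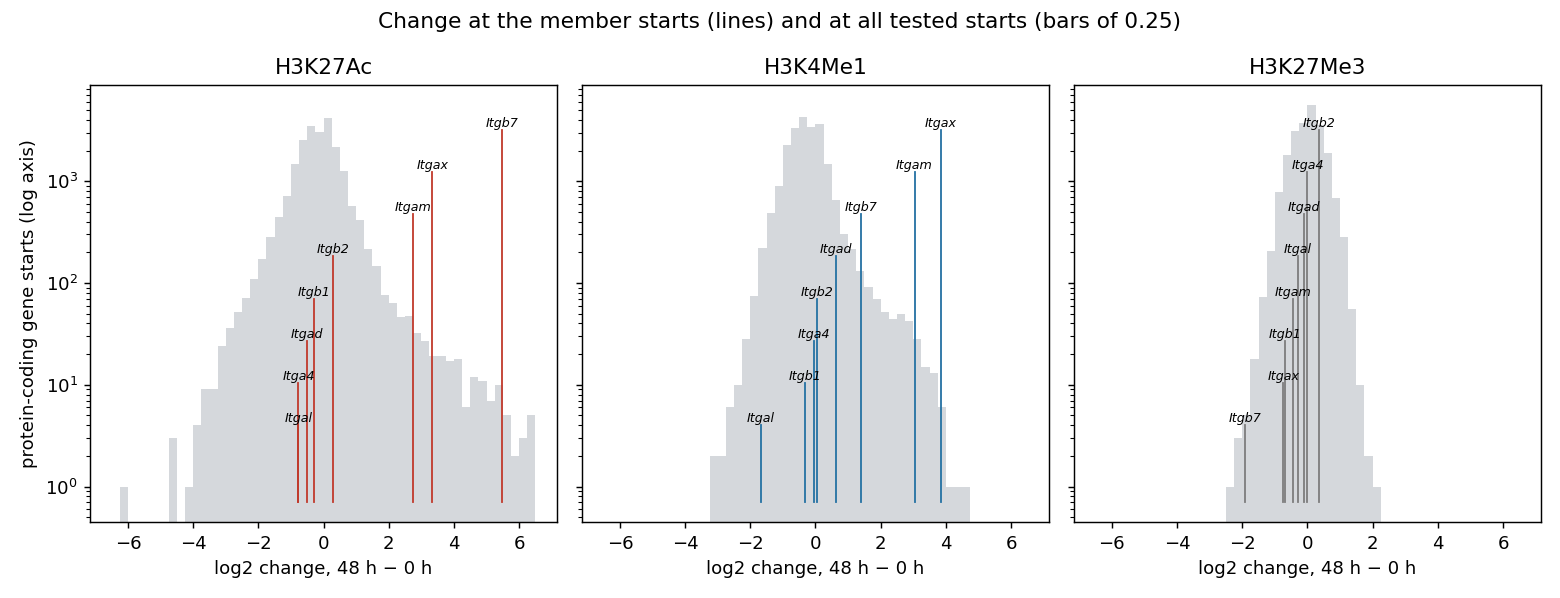
Log2 change from 0 to 48 hpi at all tested gene starts (grey bars, number of starts on a log axis) and at the 8 members (coloured lines, whose heights only keep the names apart), 1 panel per mark. Itgb7 at 5.48 for H3K27Ac and Itgax at 3.85 for H3K4Me1 lay in the sparse right-hand tails, and Itgb7 at -1.92 for H3K27Me3 in the left-hand tail.

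Among the alpha chains that pair with beta2, Itgam and Itgax followed one course and Itgal and Itgad another each. Itgam (chr7:135206154-135271674, plus strand) encodes the alphaM chain. A U1 small nuclear RNA gene also lies in its start window. H3K27Ac at the start read 10, 12, 26, 113 and 95 tags at 0, 3, 12, 24 and 48 hpi. It was flat to 3 hpi, crossed the cut-off at 24 hpi and did not rise after it. The change was 6.67-fold, or 2.74 on the log2 scale (counting interval of the tag ratio 2.31 to 4.35), and it was 1.69 between 12 and 48 hpi. Over 1 kb around the start it was 2.0 and over 6 kb 2.18. H3K4Me1 read 12, 9, 50, 167 and 135 tags, an increase of 8.24-fold that passed the cut-off at 12 hpi, before H3K27Ac did. H3K27Me3 read 52, 43, 77, 45 and 37 tags. It was enriched at every time, and its log2 change of -0.44 had a counting interval that included 0 (-1.14 to 0.14).

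Itgax, the alphaX chain, lies so close behind Itgam that the 3 kb around its start reach the end of that gene. The Itgax start (chr7:135273061, plus strand) held 14, 10, 37, 183 and 187 H3K27Ac tags, a rise of 10.1-fold or 3.34 log2 (2.96 to 4.64), of which 97.7% was present at 24 hpi. Between 12 and 48 hpi the change was 2.19. H3K4Me1 there was 10, 10, 64, 188 and 211 tags, a rise of 14.4-fold, the largest of any member for that mark. As at Itgam, the first rise in either mark came between 3 and 12 hpi and most of it between 12 and 24 hpi. H3K27Me3 was 40, 30, 35, 22 and 22 tags and reached the cut-off at 0 and 12 hpi, with a log2 change of -0.74 (-1.68 to -0.08) that did not reach 2-fold. With all tags scaled, the start held 31.6 tags at 0 hpi and 30.8 at 12 hpi, both below the cut-off, and the log2 change was -0.44.

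Itgal (chr7:134439774-134478651, plus strand), the alphaL chain, had an acetylated start from the beginning, at 489, 437, 585, 532 and 284 tags. The value at 48 hpi was the lowest of the 5, at 0.585-fold of that at 0 hpi (log2 -0.77, -1.0 to -0.57), and -1.03 on the log2 scale against 12 hpi. Scaled on bins enriched at all 5 times, the log2 change from 0 to 48 hpi was -0.36. H3K4Me1 at the same start fell from 65 and 63 tags at 0 and 3 hpi through 42 to 20 and 17 tags, a log2 change of -1.67 (-2.80 to -1.15). Over 6 kb around the start the H3K4Me1 change was only -0.17, and over 1 kb it was -1.0. The window with most H3K27Ac lay 6.0 kb upstream, outside any annotated gene, at 565, 422, 601, 787 and 336 tags (log2 -0.74, and -0.83 against 12 hpi). Inside the gene both marks rose in some windows, and H3K4Me1 fell in the one 27 kb after the start, from 27 to 9 tags. The window centred 15 kb into Itgal held 22, 34, 54, 101 and 116 H3K27Ac tags (log2 2.16, and 1.04 between 12 and 48 hpi) and 51, 47, 143, 213 and 236 H3K4Me1 tags (log2 2.11). An annotated inner start of Itgal lies just before it, 13258 bases from the first, and the 3 kb around that start rose from 22 to 60 H3K27Ac tags and from 38 to 140 H3K4Me1 tags. H3K27Me3 was between 2 and 6 tags at the main start throughout.

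Itgad (chr7:135297890-135349015, plus strand), the alphaD chain, is the neighbour of Itgam and Itgax on chromosome 7 and did not share their course. Its main start held 15, 11, 11, 3 and 9 H3K27Ac tags and 10, 12, 6, 7 and 18 H3K4Me1 tags. Neither mark reached its cut-off at any time. An alternative start 19579 bases upstream held 16, 16, 11, 4 and 11 H3K27Ac tags and was likewise never enriched. H3K27Me3 was 23, 20, 30, 23 and 21 tags, close to the genome mean of 18.4 and below the cut-off.

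The 3 genes lie head to tail in 1 block, and across its 62 windows H3K27Ac was higher in some parts and lower in others at 48 than at 0 hpi. Of these windows, 12 were enriched at 0 or 48 hpi and at least 2-fold higher, and 8 were enriched and at least 2-fold lower. Over 462405 windows near genes, the matching numbers were 28949 and 12995. Enriched or not, 10.5% and 5.71% of windows near genes were higher and lower. The higher windows lay upstream of and around the Itgam start, at 27 kb and 54 kb into Itgam and over the first part of Itgax. The lower ones lay 42 kb and 45 kb into Itgam and over Itgad. Summed over the 8 windows touching the Itgax body, H3K27Ac went from 184 to 705 tags (log2 1.94), whereas over the 18 windows touching Itgad, where the last holds the Cox6a2 start, it went from 1127 to 329 tags (log2 -1.78). The losses are measured against the 0 hpi library that stood apart, and whether they depend on it was not tested. The Itgad sum was already 456 tags at 3 hpi, in a library that also held the heavy chain segment. From 12 to 48 hpi the Itgad sum went from 276 to 329 tags and the Itgax sum from 503 to 705 tags, and of the 8 lower windows 1 was still lower by 2-fold while 5 had a change above 0. Of the 12 higher windows, 5 were still higher by 2-fold. The same follow-up from 12 hpi was not made for windows near all genes.

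**Figure D3:**
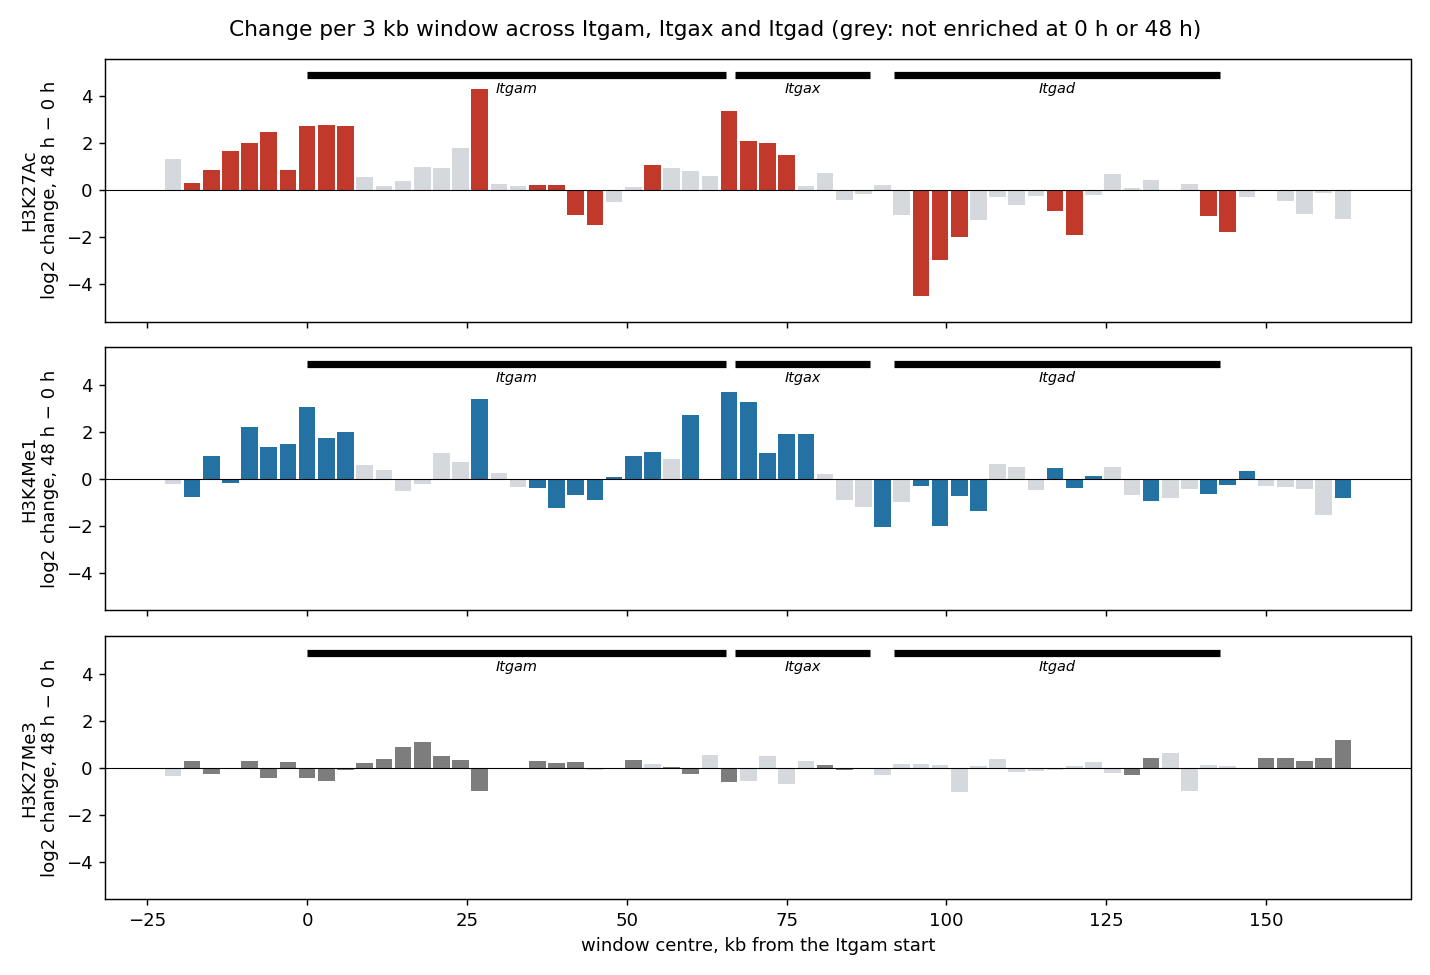
Log2 change from 0 to 48 hpi per 3 kb window across Itgam, Itgax and Itgad, against kb from the Itgam start, with 1 panel per mark, black bars for the genes and pale bars for windows enriched at neither time. H3K27Ac was higher around the Itgam and Itgax starts and lower over Itgad, down to -4.51, while few windows changed by 2-fold in H3K27Me3.

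The window of Itgam with the largest change was in an intron 27 kb after the start (chr7:135231661-135234660), with 7, 14, 68, 185 and 229 H3K27Ac tags. This was 19.5-fold, or 4.29 log2 (3.97 to 6.36), more than at the promoter, and 1.68 of it came after 12 hpi. H3K4Me1 there rose by 3.42 on the log2 scale. H3K27Me3 read 77, 70, 90, 55 and 36 tags, and it was 1 of only 2 windows in all loci that were enriched and fell by 2-fold for that mark, beside the Itgb7 start. The log2 change was at the threshold, at -1.0, and was -0.86 when scaled on background bins. Itgam as a whole did not lose H3K27Me3, as the 23 windows touching it went from 873 to 966 tags (log2 0.15). Its window 18 kb after the start rose from 40 to 91 H3K27Me3 tags. The log2 change there was 1.09, or 0.93 when scaled on bins enriched at all 5 times. The window with most H3K27Ac lay 12.0 kb upstream of Itgam, outside any annotated gene, and held 198, 93, 318, 690 and 636 tags. Its log2 change was 1.66, and 0.99 between 12 and 48 hpi. It was already marked at 0 hpi, also by H3K4Me1 (228 tags, and 204 at 48 hpi). In Itgax the corresponding window, 5.1 kb after the start, held 54, 106, 202, 293 and 233 tags and differed little between 12 and 48 hpi (log2 0.20).

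The largest loss of H3K27Ac among all member windows lay over Itgad. An intronic window 15.3 kb before the main start, and inside the longer transcript, held 154, 89, 18, 6 and 2 H3K27Ac tags, a log2 change of -4.51 (-9.33 to -4.39), and one of -1.72 from 12 hpi. Only 42.6% of its positions can be read uniquely with 36-base tags, so its tags come from part of the window. Another, 8.7 kb after the main start, held 169, 41, 38, 38 and 41 tags, so that the fall (log2 -1.92) was complete at 3 hpi and the change from 12 to 48 hpi was 0.10. H3K4Me1 in that window was 138 tags at 0 hpi and 104 tags at 48 hpi. At the far end of Itgad, the window with most H3K27Ac (440, 134, 73, 57 and 124 tags, and a log2 change of 0.73 from 12 hpi, against the direction from 0 hpi) also holds the start of Cox6a2, a muscle cytochrome c oxidase subunit, and its tags cannot be assigned to either gene.

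Itgb2 (chr10:76992997-77028453, plus strand), the beta chain shared by the 4 alpha chains, changed within the gene far more than at its start. The start read 212, 147, 349, 512 and 261 H3K27Ac tags, highest at 24 hpi, with a net log2 change of 0.29 (0.03 to 0.57) and one of -0.41 between 12 and 48 hpi. It was -0.12 over 1 kb and 0.70 when scaled on bins enriched at all times, so no direction is given for it. H3K4Me1 at the start was 80, 104, 101, 71 and 83 tags. H3K27Me3 was between 5 and 14 tags and never enriched. In contrast, the 13 windows touching the gene went from 456 to 3601 H3K27Ac tags (log2 2.98) and from 300 to 1977 H3K4Me1 tags (log2 2.72). Of the 26 windows of the locus, 17 were at least 2-fold higher in H3K27Ac and none was lower, where 10.5% and 5.71% of windows near all genes were.

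Within Itgb2, 3 windows carried most of the gain. The window 6.0 kb after the start, in an intron, read 16, 32, 259, 533 and 480 H3K27Ac tags. The one 15 kb after it (chr10:77006497-77009496) read 8, 5, 92, 479 and 702 tags, a 54.4-fold change (log2 5.77, 5.47 to 7.67) that was the largest in any member window. The one 21 kb after it (chr10:77012497-77015496) read 30, 16, 138, 701 and 943 tags, the highest value of any member window at 48 hpi. The last of these had more tags than any member start at that time. From 12 to 48 hpi, the log2 changes were 0.88, 2.87 and 2.73, respectively. H3K4Me1 moved with H3K27Ac in these windows, by 2.01, 4.87 and 4.27 on the log2 scale.

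**Figure D4:**
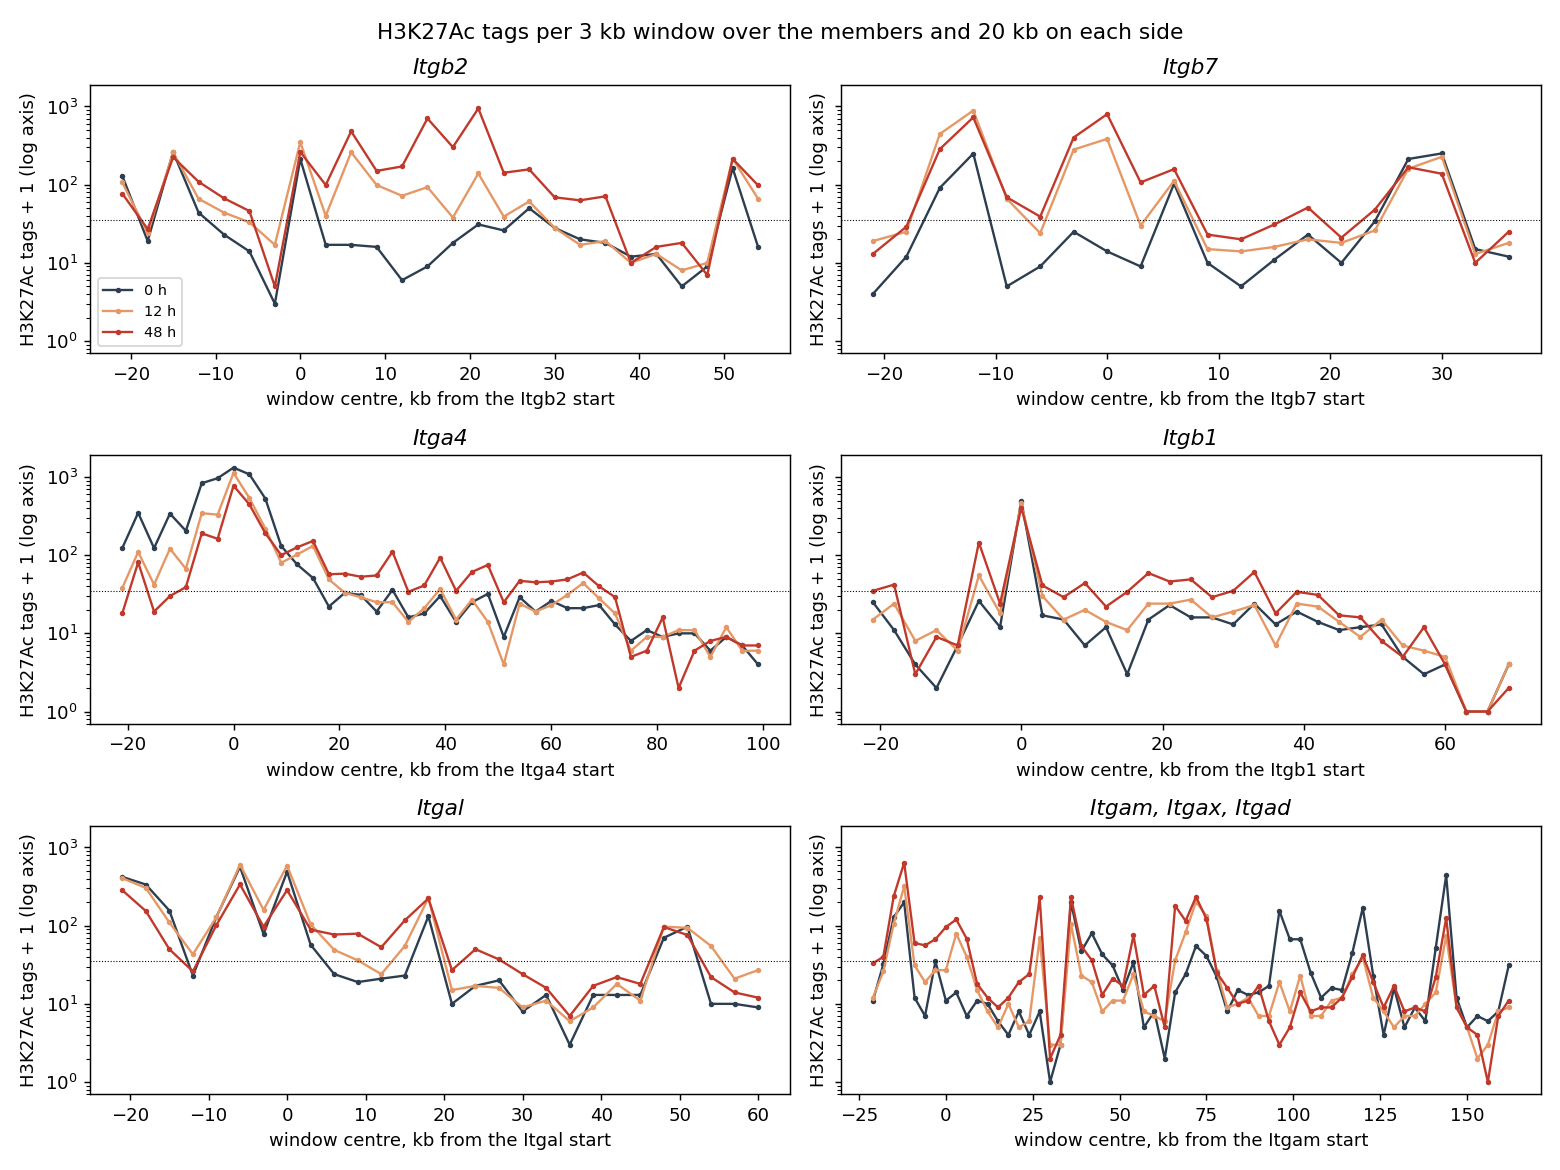
H3K27Ac tags plus 1 (log axis) per 3 kb window over the 6 member loci and 20 kb on each side at 0, 12 and 48 hpi, against kb from the start of the gene, or of the first gene; the dotted line marks the cut-off of 34 tags. Itgb2 rose along most of its body with a maximum of 943 tags, Itga4 fell upstream of its start, and the Itgb1 start was within 2-fold (496 and 405 tags).

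The alpha4 and beta1 chains, whose pair is VLA-4, had H3K27Ac at their starts before induction. Itga4 (chr2:79095583-79173280, plus strand) had 1316, 1422, 1127, 1256 and 772 tags and stayed at or above percentile 99.1 of all starts at all 5 times. Its change of -0.77 (-0.90 to -0.64) came mainly between 24 and 48 hpi, and it was -0.54 against 12 hpi. Scaled on bins enriched at all 5 times, the change from 0 to 48 hpi was -0.35. Itgb1 (chr8:131209554-131257100, plus strand) had 496, 575, 463, 491 and 405 tags, with a log2 change of -0.29 (-0.49 to -0.10) and -0.19 against 12 hpi, a direction that turned to 0.12 when scaled on bins enriched at all times. H3K4Me1 stayed between 19 and 30 tags at Itga4 and between 23 and 52 tags at Itgb1. H3K27Me3 did not exceed 12 tags at either.

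The region upstream of Itga4 lost H3K27Ac from the first time point. The 7 windows before the start, which hold no annotated gene, summed to 2928, 1502, 1045, 868 and 532 tags, a log2 change of -2.46, with all 7 lower by at least 2-fold. The sum fell by 0.96 between 0 and 3 hpi and by 0.97 between 12 and 48 hpi. H3K4Me1 in the same windows was 1341, 1639, 1151, 773 and 585 tags, so that it was not lower at 3 hpi. The largest change was in the window 12.0 kb upstream (chr2:79082083-79085082), which held 339, 98, 120, 46 and 29 H3K27Ac tags (log2 -3.34, -4.15 to -3.0, and -1.88 against 12 hpi). After the start, the window 3.0 kb into the gene held 1079, 1165, 536, 625 and 444 tags (log2 -1.27, but -0.86 when scaled on bins enriched at all times and -0.27 against 12 hpi), whereas the intronic window 15 kb into it held 50, 280, 130, 166 and 151 tags, highest at 3 hpi and with a log2 change of 1.5, or 0.21 against 12 hpi. Of the 26 windows over the rest of the gene body, 13 were higher and 2 lower by 2-fold, where 10.5% and 5.71% of windows near all genes were. The other 12 windows that were higher held between 24 and 110 tags at 48 hpi.

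Around Itgb1 the gains were small in tags. The window with most H3K27Ac outside the start lay 6.0 kb upstream and had 25, 30, 54, 161 and 144 tags (log2 2.31, and 1.34 against 12 hpi), and the largest change was from 2 to 33 tags in an intron 15 kb after the start (log2 2.44). Of the positions in the upstream window, 79.0% can be read uniquely. Over the locus 11 of 31 windows were higher by 2-fold, and none was lower, where 10.5% and 5.71% of windows near all genes were.

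Itgb7 (chr15:102046426-102062366, minus strand), the other partner of alpha4, showed the largest change of any member start in H3K27Ac. Its start held 13, 42, 384, 694 and 797 H3K27Ac tags, a rise of 44.6-fold or 5.48 log2 (5.16 to 6.85). It was the only member whose H3K27Ac start crossed the cut-off at 3 hpi, and 47.3% of the rise was present at 12 hpi and 86.9% at 24 hpi. Over 1 kb around the start the log2 change was 4.64 and over 6 kb 5.09. Between 12 and 48 hpi, without the libraries that stood apart, the change was 1.04. H3K4Me1 was enriched at 0 hpi and was highest at 12 hpi, at 53, 135, 269, 175 and 148 tags. H3K27Me3 was 67, 62, 71, 52 and 14 tags, so that most of its fall came after 24 hpi, when H3K27Ac had reached 694 tags. The log2 change was -1.92 (-3.20 to -1.41), and it was -1.06 over 1 kb and -1.26 over 6 kb. It was the only member start at which H3K27Me3 fell by 2-fold.

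Itgb7 lies next to Rarg, the gene of the retinoic acid receptor gamma, and the windows on that side rose too. The window 3.0 kb upstream, which overlaps an exon of Rarg, held 24, 25, 280, 387 and 400 H3K27Ac tags (log2 3.80, but 0.51 against 12 hpi). The window with the most H3K27Ac lay 12.0 kb upstream, inside Rarg, where transcripts of Rarg other than the one used for its main start begin, at 249, 496, 887, 1061 and 725 tags. Its H3K27Ac was highest at 24 hpi, and its log2 change between 12 and 48 hpi was -0.29, while that of the Itgb7 start was 1.04. In the locus 12 of 20 windows were higher by 2-fold in H3K27Ac (10.5% near all genes) and none was lower (5.71%).

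To show the sequence of regions where acetylation changed, 3 stretches of 300 bases were read from mm9. The window of Itgad with the largest loss was left out because 42.6% of its positions can be read uniquely. Each is the stretch with most H3K27Ac tags in the window with the largest change, none overlaps an exon, and all are on the plus strand. They are the gained intronic regions of Itgam (chr7:135233061-135233360) and Itgb2 (chr10:77008097-77008396) and the lost region upstream of Itga4 (chr2:79083783-79084082), with motif matches in capitals.
Itgam intron: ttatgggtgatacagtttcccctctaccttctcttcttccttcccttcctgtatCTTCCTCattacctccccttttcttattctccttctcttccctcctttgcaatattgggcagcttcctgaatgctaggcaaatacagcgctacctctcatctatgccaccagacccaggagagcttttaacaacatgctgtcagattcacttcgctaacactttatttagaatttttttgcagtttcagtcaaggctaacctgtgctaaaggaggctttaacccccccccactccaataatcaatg
Itgb2 intron: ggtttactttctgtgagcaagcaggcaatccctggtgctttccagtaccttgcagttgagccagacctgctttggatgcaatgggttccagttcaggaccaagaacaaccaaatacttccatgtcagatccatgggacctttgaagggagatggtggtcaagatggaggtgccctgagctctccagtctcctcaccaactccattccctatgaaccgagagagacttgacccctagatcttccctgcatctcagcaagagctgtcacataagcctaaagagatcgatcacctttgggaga
Itga4 upstream: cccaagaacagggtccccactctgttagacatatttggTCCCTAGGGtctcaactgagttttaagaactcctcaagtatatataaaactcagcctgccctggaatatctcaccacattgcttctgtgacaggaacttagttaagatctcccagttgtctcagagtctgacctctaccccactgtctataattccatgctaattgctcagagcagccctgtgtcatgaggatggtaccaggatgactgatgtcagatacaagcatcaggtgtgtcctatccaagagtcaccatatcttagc
The Itgam stretch had 0 H3K27Ac tags at 0 hpi and 67 at 48 hpi and held 1 PU.1 type match. Such a match was in 13.0% of 65130 stretches with most H3K27Ac from windows near genes. Those windows were enriched at 0 or 48 hpi, held no coding start and were taken whether or not they changed. The Itgb2 stretch went from 0 to 140 tags and held none of the 5 motifs. The Itga4 stretch went from 71 to 3 tags and held 1 EBF type match, found in 5.06% of the 65130 stretches. The stretches of Itgal (1 PU.1 type match), Itgb1 and Itgb7 (none of the 5 motifs in either) were also read but are not printed. The positions of most acetylation mark nucleosomes and need not be those where a factor binds.

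Taking all 208 windows of the 6 loci, 75 (36.1%) were at least 2-fold higher in H3K27Ac at 48 than at 0 hpi and 24 (11.5%) were lower. Over 462405 windows within 20 kb of protein-coding genes the shares were 10.5% and 5.71%. Windows enriched in H3K27Ac rose from 53 (25.5%) at 0 hpi, where 9.7% of windows near genes were enriched, through 56, 70 and 82 to 106 (51%) at 48 hpi, where 14.7% were. Between 12 and 48 hpi, without the libraries of 0 and 3 hpi, 48 windows were higher and 9 lower, beside 5.16% and 3.89% of windows near genes. Among the 8 starts in that comparison, Itgam, Itgax and Itgb7 were higher by 2-fold, where 2.51% of all starts were, and Itgal was lower, where 4.82% were. The median log2 change of the 208 windows from 0 to 48 hpi was 0.62, beside 0.00 for windows near genes. Neighbouring windows share the same regions and are not independent.

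H3K4Me1 was higher by 2-fold in 47 windows (22.6%) and lower in 16 (7.69%), where 7.46% and 10.7% of windows near genes were. It was enriched in 92 windows (44.2%) at 0 hpi and 116 (55.8%) at 48 hpi, beside 15.7% and 18.5%. H3K27Me3 was higher in 5 (2.4%) and lower in 12 windows (5.77%), beside 1.23% and 2.17%, but only 2 of the 5 and 2 of the 12 were enriched at 0 or 48 hpi. It was enriched in 52 windows (25%) at 0 hpi and in 51 (24.5%) at 48 hpi, where 17% and 18.7% of windows near genes were.

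The changes at 48 hpi were followed back in time. Of the 19 enriched windows that were lower by 2-fold at 48 hpi, 10 were already past 2-fold at 3 hpi and 17 at 12 hpi, and 5 were lower by 2-fold between 12 and 48 hpi. Among 12995 such windows near all genes, 32.2% were at 3 hpi and 55.4% at 12 hpi. Of the 61 enriched windows that were higher, 7 were past 2-fold at 3 hpi and 29 at 12 hpi, beside 19.3% and 49.4% of 28949 such windows near all genes, and 33 were higher by 2-fold between 12 and 48 hpi. More of the losses than of the gains were thus present at 3 hpi near genes in general. The counts between 12 and 48 hpi were not made for such windows near all genes, so they do not show a trait particular to these loci. Of the 19, 9 were in the Itga4 locus, 8 in the block of Itgam, Itgax and Itgad and 2 near Itgal. Both the 0 and the 3 hpi library held the heavy chain segment, so the losses seen at 3 hpi compare libraries that share it.

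H3K27Ac and H3K4Me1 were compared window by window. Among 136 windows enriched in either at 0 or 48 hpi, 38 were higher by 2-fold in both, 8 were lower in both and none moved in opposite directions by 2-fold. In 25 only H3K27Ac was higher and in 13 only H3K27Ac was lower, whereas H3K4Me1 alone was higher in 6 and lower in 4. Pearson's r between the log2 changes was 0.74 and Spearman's rho was 0.72 over these 136 windows, given as a description, since neighbouring windows share regions and all come from the same libraries. By locus, r lay between 0.55 (Itgal) and 0.86 (Itgb2). The same counts and correlations were not made over windows near all genes, so they do not show a trait particular to these loci.

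**Figure D5:**
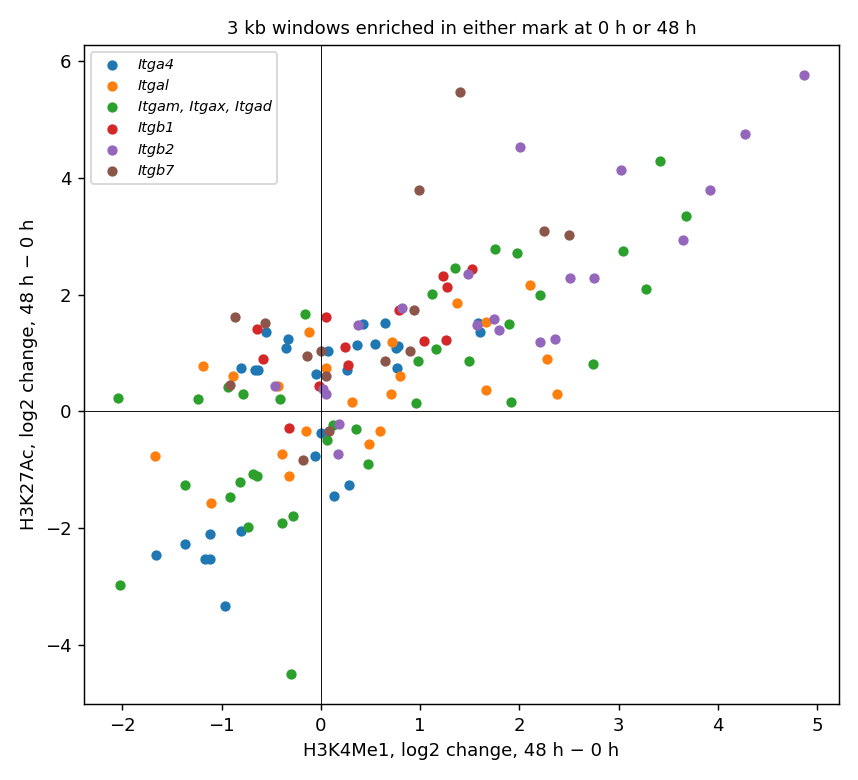
Log2 change from 0 to 48 hpi in H3K27Ac (vertical) and in H3K4Me1 (horizontal) for 136 windows of 3 kb enriched in either mark, coloured by locus. Itgb2 windows reached the upper right corner (5.77 and 4.87), the Itga4 upstream windows lay at the lower left, and the Itgb7 start (5.48 and 1.40) lay above the others with the same change in H3K4Me1.

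Other genes of the integrin pathway were taken from a list of 61, of which 60 were measured. H3K27Ac at the start was at least 2-fold higher at 9 (15%) and lower at 9 (15%) of them, where 5.5% and 9.66% of all starts were. The median change was 0.13, beside -0.16 over all starts. Between 12 and 48 hpi 6 (10%) were higher and 5 (8.33%) lower, beside 2.51% and 4.82%. Scaled on bins enriched at all times, 12 were higher and 2 lower at 48 than at 0 hpi. H3K4Me1 was higher at 5 (8.33%) and lower at 9 (15%), beside 3.5% and 9.83%. H3K27Me3 changed by 2-fold at none, where 1.61% of all starts were higher and 2.01% lower. Among 20 other integrin subunits 4 were higher and 2 lower, where 5.5% and 9.66% of all starts were. Itga1, a collagen-binding alpha chain, went from 87 to 212 tags and Itga8 from 14 to 34 tags, while Itga6, a laminin-binding alpha chain, fell from 441 to 143 tags and Itgav, the alpha chain of vitronectin receptors, from 734 to 323 tags. From 12 to 48 hpi the log2 changes of Itga1 (0.73), Itga6 (-0.63) and Itgav (-0.61) were within 2-fold, and that of Itga8 was 1.04. Itga6 fell in H3K4Me1 too, from 77 to 17 tags.

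Among 19 genes that activate integrins from inside the cell, 1 was higher and 2 were lower, close to the shares of all starts (5.5% and 9.66%). Parvb, a parvin that links integrins to actin, rose from 6 to 83 tags (log2 3.00, and 2.29 against 12 hpi). Rasgrp2, the exchange factor that turns on Rap1 in platelets and neutrophils, read 1129, 1015, 657, 481 and 166 tags (log2 -2.73, and -1.95 against 12 hpi), lower at each step. Cyth1, a cytohesin that binds the beta2 tail, fell from 1360 to 631 tags (log2 -1.10, and -0.44 against 12 hpi). The starts of Fermt3, the kindlin of blood cells, and Tln1, the talin, were within 2-fold at 1044 and 1099 tags and at 490 and 452 tags. The latter 2 were added to the named genes for their role, after their values were seen.

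Of 9 genes that signal after binding, Fgr, a Src family kinase of myeloid cells, rose from 16 to 72 tags (log2 1.87, and 0.87 against 12 hpi). Ptk2b, a focal adhesion kinase, fell from 412 to 190 tags (log2 -1.10). Among 12 ligands, Spp1 (osteopontin, a ligand of alpha4 and alphaV integrins) rose from 8 to 97 tags, all of it after 12 hpi. Madcam1, the ligand of the alpha4-beta7 pair, rose from 18 to 136 tags with 131 tags at 12 hpi, and Fn1 (fibronectin) rose from 8 to 34 tags. Icam2 fell from 787 to 343 tags and Icam5, whose window overlaps that of Icam4, from 412 to 178 tags. From 12 hpi the log2 changes were -0.72 for Icam2 and -0.56 for Icam5, within 2-fold, 0.05 for Madcam1 and 1.70 for Fn1.

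The genes with the pattern most like each member, over tags at the start in all 15 libraries, were found by Euclidean distance on the log2 scale. For Itgam they were Ambp (distance 1.66) and Pla2g3 (1.77), and for Itgax Prss22 (1.54) and Mmp19 (1.84), where the median distances to all genes were 9.33 and 9.50. For Itgb7, Rnf11 (2.30) and Slfn1 (2.51) were nearest, so that it had the least similar neighbours of the 8. For Itgal they were Akt1 and Cpsf7 (both 1.11), for Itgb2 Naaa (1.08) and Cmtm3 (1.19), for Itga4 Hnrnpa3 (1.16) and Klf9 (1.31), for Itgb1 Ripk2 (0.76) and Trdmt1 (0.82), and for Itgad Prss2 (1.10) and Nhej1 (1.20). Among the members themselves, the closest pairs were Itgal and Itgb1 (2.09) and Itgam and Itgax (2.20).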

How the data were processed

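Per the labels, C10 cells were immunoprecipitated for each mark and sequenced. The deposited files hold tag positions in mm9, with 36 bases per tag and no strand. The authors kept uniquely aligned tags without mismatch. Bowtie is named in the submitters' processing notes, and either Eland or Bowtie in the methods. Which served which library is not given in the sources used here. Libraries held 11041458 to 17847176 tags for H3K4Me1, 15929378 to 18564298 for H3K27Ac and 15358857 to 31557475 for H3K27Me3.

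One tag was kept per position on chromosomes 1 to 19 and X, placed 18 bases into the interval, and libraries were thinned (seed 51) to the smallest of each mark. Tags were counted in 3 kb around each start and in 3 kb windows over each gene with 20 kb on each side. Enrichment meant an upper Poisson tail under 0.001 over the mean of mappable windows. Counting intervals were exact Poisson for tags and exact binomial for ratios, at 95%, and cover counting error only. Sequences and genes came from the reference NCBIM37 (mm9) with GENCODE vM1. The 2-fold calls and the Poisson intervals were tested on simulated counts, but the counting of tags was not. The calls were tested only at starts above the enrichment cut-offs at 0 hpi, so not at low counts. Python 3.11.15, numpy 2.4.6, pandas 2.3.3 and scipy 1.17.1 were used.

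The members and all lists (other pathway genes, markers, motifs) were chosen with earlier results of these data known. Beside the members, the text names per pathway group at most 3 genes that rose and 3 that fell most in H3K27Ac among those past 2-fold with at least 30 tags at 0 or 48 h. It also names the 2 most similar genes more than 50 kb away, by distance in log2(tags + 5), and per member the window with most H3K27Ac outside the start and that with the largest change. The windows 6.0 kb into Itgb2, 8.7 kb into Itgad and 15 kb into Itga4, and the genes Fermt3 and Tln1, were added after their values were seen. With 1 library per mark and time there was no test. Alternatives were other scalings, all tags, 1 tag added, windows of 6 and 1 kb, shifted windows, other starts and tag ends, a stricter enrichment cut-off and 48 against 12 h, the last chosen after seeing the data.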

Additional observations from a re-analysis of the deposited data

How the results depend on the processing

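No paired analysis was possible because only 1 library existed for any mark at any time, and none could be left out as a replicate. Of 350 values under alternatives, for 44 results, 302 stayed within the margin set for them, 48 moved beyond it and 0 changed direction after a call. For H3K27Ac, the number of member starts lower by 2-fold (0) became 1 with 6 kb windows, 1 with 1 kb windows and 1 for 48 against 12 h. The windows went from 75 higher and 24 lower to 48 and 9 for 48 against 12 h. The other pathway genes that were lower went from 9 to 2 with scaling on bins enriched at all times, 5 with 6 kb windows and 5 for 48 against 12 h. For H3K4Me1, member starts lower (1) became 0 with 6 kb windows and 2 with the most upstream starts. Windows higher went from 47 to 72 and windows lower from 16 to 6 with scaling on background bins, and 31 were lower with 1 tag added. For H3K27Me3, member starts lower (1) became 2 with 1 tag added. Windows higher (5) became 2 with all tags, 2 with tags as deposited, 3 with scaling on bins enriched at all times and 3 with shifted windows. Windows lower (12) became 5 with all tags, 5 with tags as deposited and 21 with 1 tag added. The cause was not tested, except that 48 against 12 h uses other libraries and that adding fewer tags lets lower counts pass 2-fold. Among single changes, Itgam H3K27Ac was 2.0 over 1 kb, Itgb7 H3K27Ac 4.64 over 1 kb and Itga4 H3K27Ac -1.10 over 6 kb, and Itgb7 H3K27Me3 was -1.26 over 6 kb and -1.06 over 1 kb. With scaling on bins enriched at all times, H3K27Ac was -0.36 at Itgal and -0.35 at Itga4. Depth limits the low counts most: a window under 5 tags cannot show a 2-fold fall once 5 tags are added.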
